A study of Homo sapiens with 3 samples.

Results

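Ribosome biogenesis genes encode the nucleolar machinery that makes and matures ribosomal RNA. The set read here held 33 genes of the 32738 gene rows of the deposited tables: 6 genes of RNA polymerase I and its factors, 3 of the box C/D small nucleolar ribonucleoprotein, 4 of the box H/ACA particle, 7 of large subunit assembly, 8 of small subunit assembly and 5 nucleolar proteins with several tasks. They were chosen by name, as rRNA processing and RNA polymerase I genes known as MYC targets, and not by a measured value. Earlier results of these data were known when they were chosen. All 33 names had a row in the tables.

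The cells were Kelly, an established human neuroblastoma line that carries amplified MYCN and an activated ALK kinase. Droplet 3' single-cell RNA-seq counted UMIs, which are distinct RNA molecules, in 3 libraries: sensitive cells kept in the vehicle DMSO, intermediate resistant cells kept in 500 nM of the ALK inhibitor TAE684, and fully resistant cells kept in 1 µM of it. Each state was 1 library, so resistance, the dose present at harvest and the culture itself cannot be told apart, and no test between states was possible. Intervals below are 95% Poisson intervals (for a ratio, exact conditional ones) and cover counting error only.

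RNA polymerase I transcribes the long precursor of the 18S, 5.8S and 28S rRNAs in the nucleolus. Small nucleolar ribonucleoproteins modify and help cut it, and large sets of assembly factors then build the 40S and 60S subunits and leave them before translation. MYC and MYCN are known to bind the promoters of many of these genes, often at the E-box CACGTG, and neuroblastomas with amplified MYCN are known for high ribosome production.

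Promoter windows, from 250 bases before to 50 bases after an annotated start, were taken from RefSeq (GRCh38.p14) for 28 of the 33 genes, in 36 windows. NOLC1, RRP12, NOP58, BOP1 and RRS1 had no window. The letters CACGTG, which read the same on both strands, were in a window of 12 of the 28 genes, or 42.9%: BYSL, DDX21, FBL, GAR1, GNL3, LTV1, MYBBP1A, NOP10, PES1, RRP9, UTP20 and WDR43. Among 4241 genes with a level of at least 20 UMIs per 1000000 here, 14.9% had them, and among all 27305 genes with a window 8.77%. Counted by window, the shares were 33.3% of 36, 10.8% of 6246 and 7.26% of 35116. The related letters CACGCG, searched on both strands, were in 27.8%, 19.7% and 11.4% of the same windows. A match describes these letters in this window and is no measured binding site. The 33 genes were chosen as known MYC targets, so their higher share of CACGTG is no independent finding. The windows below hold CACGTG and belong to RRP9, GNL3, PES1, LTV1 and DDX21, whose levels differed between libraries, and to FBL, the core enzyme of the box C/D particle. GNL3 and DDX21 each have another window too, at a different annotated start and without CACGTG, which is not printed. NOB1, NIP7 and NOP56, whose levels differed by more than 1.5-fold, have windows without these letters, which are not printed. Each is written 5' to 3' along the gene's own strand, and capitals mark CACGTG. They lie at chr19:39846330-39846629 (minus strand) for FBL, chr22:30591861-30592160 (minus strand) for PES1, chr3:52685782-52686081 (plus strand) for GNL3, chr3:51941855-51942154 (minus strand) for RRP9, chr6:143843088-143843387 (plus strand) for LTV1 and chr10:68956397-68956696 (plus strand) for DDX21.
FBL: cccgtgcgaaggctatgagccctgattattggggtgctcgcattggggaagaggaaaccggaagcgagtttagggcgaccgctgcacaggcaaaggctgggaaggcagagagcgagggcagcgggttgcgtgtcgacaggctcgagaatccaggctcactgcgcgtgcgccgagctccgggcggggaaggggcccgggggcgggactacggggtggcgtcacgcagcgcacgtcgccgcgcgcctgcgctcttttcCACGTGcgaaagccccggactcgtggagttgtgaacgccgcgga
PES1: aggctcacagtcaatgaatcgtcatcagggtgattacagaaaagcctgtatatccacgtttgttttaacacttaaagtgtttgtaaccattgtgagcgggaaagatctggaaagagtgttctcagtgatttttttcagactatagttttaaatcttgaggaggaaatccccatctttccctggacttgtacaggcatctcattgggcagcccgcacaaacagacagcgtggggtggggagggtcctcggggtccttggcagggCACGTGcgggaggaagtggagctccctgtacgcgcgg
GNL3: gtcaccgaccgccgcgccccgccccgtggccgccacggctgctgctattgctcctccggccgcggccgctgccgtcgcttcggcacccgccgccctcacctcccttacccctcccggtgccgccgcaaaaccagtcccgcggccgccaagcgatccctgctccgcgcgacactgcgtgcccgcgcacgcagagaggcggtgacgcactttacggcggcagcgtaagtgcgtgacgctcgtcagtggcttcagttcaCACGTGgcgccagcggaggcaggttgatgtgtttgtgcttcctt
RRP9: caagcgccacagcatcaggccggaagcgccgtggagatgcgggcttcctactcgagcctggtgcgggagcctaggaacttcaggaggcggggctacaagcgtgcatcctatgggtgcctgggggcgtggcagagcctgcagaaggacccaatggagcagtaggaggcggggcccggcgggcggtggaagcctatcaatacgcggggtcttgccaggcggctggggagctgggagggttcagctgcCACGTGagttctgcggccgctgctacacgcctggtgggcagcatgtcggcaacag
LTV1: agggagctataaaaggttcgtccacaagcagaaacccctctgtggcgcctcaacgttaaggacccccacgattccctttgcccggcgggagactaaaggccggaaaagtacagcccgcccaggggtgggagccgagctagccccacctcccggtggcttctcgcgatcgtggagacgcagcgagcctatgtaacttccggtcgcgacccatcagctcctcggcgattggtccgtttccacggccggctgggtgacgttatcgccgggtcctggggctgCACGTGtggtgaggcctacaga
DDX21: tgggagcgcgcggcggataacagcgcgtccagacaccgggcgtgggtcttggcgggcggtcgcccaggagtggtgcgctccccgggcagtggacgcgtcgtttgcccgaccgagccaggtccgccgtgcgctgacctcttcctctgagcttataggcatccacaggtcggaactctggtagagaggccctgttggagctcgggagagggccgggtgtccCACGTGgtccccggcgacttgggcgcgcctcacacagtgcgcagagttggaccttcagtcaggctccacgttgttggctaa

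With the annotated start as position 0, the first letter of CACGTG was at position 6 in FBL, 13 in PES1, 6 in GNL3, -5 in RRP9, 28 in LTV1 and -31 in DDX21, so in these 6 windows it lay close to the start. GNL3 and RRP9 carry it in neighbouring stretches of chromosome 3 and were both lower in the fully resistant library, while LTV1 carries it and was higher there than in the intermediate one (values below).

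Cells were barcodes with at least 5000 UMIs, 500 genes and at most 20% mitochondrially encoded UMIs, which gave 5415 sensitive, 6288 intermediate and 6331 fully resistant cells. They held 95119772, 102449567 and 106163582 UMIs, with medians of 15660.5 to 16014 per cell. Levels are UMIs per 1000000 UMIs of all called cells of a library (CPM). Between 38 and 62 barcodes were shared by a pair of libraries, against 46.2 to 54.0 that the library sizes alone would give, and 0 by all 3. The neuroblastoma markers PHOX2A, HAND2, GATA3, ISL1 and MYCN each had a CPM of at least 78.8 in every library. Summed markers of fibroblasts were at 14.8 to 19.8, of endothelial cells under 1, of immune cells at up to 2.50, with CD3E at 0, and of epithelial cells at 1.23 to 12.9, with CDH1 at 0. MYCN stood at a CPM of 1242, 413 and 446 in the sensitive, intermediate and fully resistant library, a log2 ratio of -1.59 and -1.48 against the sensitive cells. MYC was near 0 throughout, with 5, 9 and 31 UMIs.

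Against that drop in MYCN RNA, the 33 genes differed little. Their summed CPM was 5232 (95% interval 5217 to 5246) in sensitive, 4771 (4758 to 4785) in intermediate and 4526 (4513 to 4539) in fully resistant cells. NPM1 was the largest part of it in each library, so the sum without it was also read: 3645, 3149 and 3312. With NPM1 the fully resistant library was lowest, and without it the intermediate one. The sum moved by -0.14 and -0.21 on the log2 scale without NPM1, for fully and intermediate resistant over sensitive cells. Because 3' capture differs between genes, the levels below compare 1 gene between libraries and do not rank genes against each other.

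A gene entered a comparison if its CPM was at least 20 in the higher library. That left 27 of the 33 in both comparisons with sensitive cells and 26 between the resistant libraries. POLR1A, POLR1B, POLR1C, RRN3, BOP1 and RRP12 were below 20 in every library. Calls rest on the size of the ratio and on no test: a gene counts as higher or lower from 1.5-fold up.

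In the fully resistant library, 0 of the 27 genes were called higher than in the sensitive one and 5 were called lower: RRP9, NOB1, NIP7, GNL3 and PES1. Over all 5342 genes tested, 14.7% were called higher and 12.2% lower. The median log2 ratio of the 27 was -0.13, against 0.10 for all genes, and 18 of the 27 were below 0, against 40.2% of all genes. Intermediate resistant cells had 0 of 27 called higher and 2 called lower, NOP56 and PES1, where all 5045 genes gave 4.72% and 10.2%. There the median was -0.22 against -0.08, and 25 of 27 were below 0, against 60.4% of all genes. Between the resistant libraries, 1 of 26 genes was called higher in the fully resistant cells, LTV1, and 3 were called lower, GNL3, RRP9 and NOB1, where all 5165 genes gave 12.4% and 6.35%. The median of 0.17 equalled that of all genes, 0.17, and 9 of 26 were below 0, against 28.9% of all genes. These 3 comparisons share their libraries pairwise.

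At a smaller fold of 1.25, 2 of 27 were higher and 7 lower in fully resistant than in sensitive cells, beside 29.0% and 20.3% of all genes. For intermediate over sensitive cells it was 0 and 10 of 27, beside 11.4% and 22.7%, and for fully over intermediate resistant cells 7 and 4 of 26, beside 30.7% and 11.1%. With CPM scaling, the sensitive library was the lowest of the 3 for 0 of the 27 genes, against 33.2% of all genes. It was the highest for 16 of the 27 genes, against 33.1%. The intermediate library was the lowest for 18 of them, against 43.4%, and the fully resistant library the highest for 9, against 52.7%. Over all 33 genes, the interval of the ratio included 1 for 8, 9 and 3 genes in the 3 comparisons.

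The choice of scaling bears on small values. Weighted trimmed-mean (TMM) scaling moved the median of all genes from 0.10 to -0.01 for fully resistant over sensitive cells, from -0.08 to -0.03 for intermediate over sensitive and from 0.17 to 0.02 between the resistant libraries. Log2 ratios nearer to 0 than these shifts have no fixed direction. With TMM, 22 of the 27 biogenesis genes were below 0 for intermediate over sensitive cells, in place of 25. The counts of genes lowest or highest in a library, given above, were read with CPM scaling only and can change with the scaling. With TMM the calls over all genes were 595 higher and 783 lower for fully resistant over sensitive cells, in place of 783 and 652, and 423 and 457 between the resistant libraries, in place of 643 and 328. Read against the median of all genes, 22 of the 27 biogenesis genes were below it for fully resistant over sensitive cells. Under the 3 other scalings it was 22 to 23 (of 27, or of the 30 tested with ribosomal protein and mitochondrially encoded genes taken out of the total). A scaling moves all log2 ratios of a comparison alike, so this count could change only through which genes passed the CPM minimum. The agreement between scalings is therefore no separate support.

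**Figure D1:**
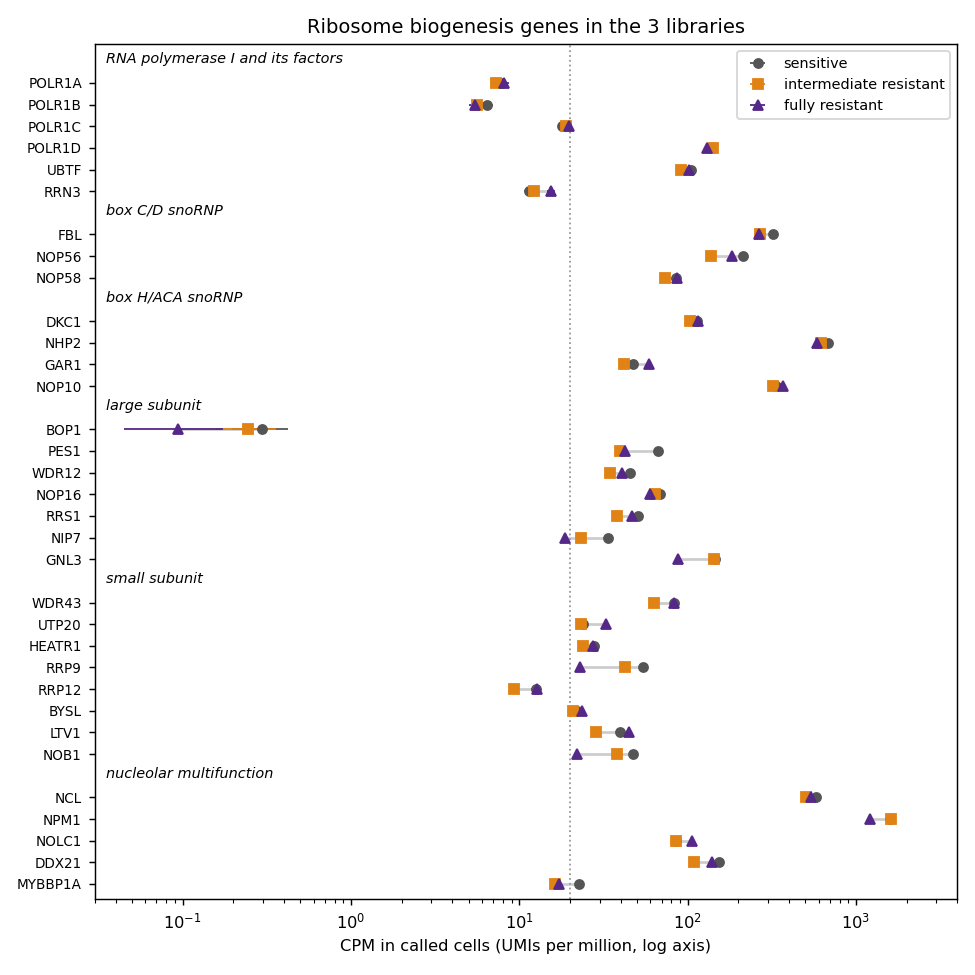
CPM of the 33 ribosome biogenesis genes in the sensitive, intermediate and fully resistant library, grouped by role, on a log axis. Bars are 95% Poisson intervals, mostly smaller than the symbols, and the dotted line marks the CPM of 20. RRP9, NOB1, NIP7 and GNL3 show the fully resistant library to the left, PES1 both resistant libraries, and NOP56 the intermediate one. BOP1 lies below 1.

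Of the 6 RNA polymerase I genes, POLR1D and UBTF passed the minimum, and neither was called. POLR1A encodes the largest subunit of the enzyme, and its CPM was 7.83 (7.28 to 8.42), 7.22 (6.71 to 7.76) and 8.13 (7.60 to 8.69) in sensitive, intermediate and fully resistant cells. These intervals overlap, and the ratio of fully resistant to sensitive cells was 1.04 (0.940 to 1.15). POLR1B, the second largest subunit, stood at 6.42, 5.59 and 5.44. POLR1C and POLR1D form the assembly platform shared with RNA polymerase III. POLR1C was at 17.9, 18.9 and 19.8. POLR1D was at 139 (136 to 141), 141 (139 to 144) and 130 (128 to 133), so the fully resistant library lay slightly below the other two, with a ratio of 0.941 (0.919 to 0.964) to the sensitive one. UBTF, the factor that keeps rDNA open and active, was at 104 (102 to 106), 90.9 (89.1 to 92.8) and 102 (100 to 104). It was thus 1.14-fold lower (1.11 to 1.18) in intermediate than in sensitive cells, and nearly equal in sensitive and fully resistant ones. RRN3, which recruits the polymerase to the promoter, was below the CPM minimum at 11.4, 12.2 and 15.4, and its ratio of fully resistant to sensitive cells was 1.36 (1.25 to 1.46).

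Among the box C/D proteins, which carry out 2'-O-methylation of rRNA, NOP56 and NOP58 had their lowest level in the intermediate library and FBL in the fully resistant one. FBL, the methyltransferase, had a CPM of 323 (319 to 327), 269 (266 to 272) and 264 (260 to 267). Sensitive cells were the high ones, 1.20-fold (1.18 to 1.22) above intermediate and 1.23-fold (1.21 to 1.25) above fully resistant cells. NOP56, a scaffold protein of the particle, stood at 213 (210 to 215), 137 (135 to 140) and 183 (180 to 185). Intermediate cells were 1.55-fold lower (1.52 to 1.58) than sensitive ones, and the fully resistant level lay between. TMM scaling put this log2 ratio at -0.58 in place of -0.63, just short of a call, and the total without ribosomal protein and mitochondrially encoded genes at -0.57. In cells thinned to 9500 UMIs each, 84.8%, 68.1% and 79.4% had at least 1 NOP56 UMI (93.5%, 82.4% and 89.4% unthinned), the same order as the CPM. NOP58, the partner of NOP56, was at 85.2, 72.9 and 86.4.

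The box H/ACA particle, which turns uridine into pseudouridine in rRNA and also stabilises telomerase RNA, held no called gene. DKC1, its pseudouridine synthase, was at 114 (112 to 116), 103 (101 to 105) and 115 (113 to 117), and the ratio of fully resistant to sensitive cells was 1.01 (0.981 to 1.03). NHP2, an RNA-binding protein of the particle, was at 679, 620 and 588. GAR1 was highest in fully resistant cells, at 59.1 (57.6 to 60.5) against 47.2 (45.8 to 48.6) in sensitive and 42.1 (40.8 to 43.3) in intermediate cells, a ratio of 1.25 (1.20 to 1.30) to the sensitive and 1.40 (1.35 to 1.46) to the intermediate level. NOP10 was at 335, 323 and 367. DKC1, GAR1 and NOP10 thus had their lowest level in the intermediate library and NHP2 in the fully resistant one.

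Genes of large subunit assembly were the lowest of the groups relative to sensitive cells: all 6 that passed the CPM minimum were below 0 in both comparisons, with medians of -0.42 and -0.41. PES1, BOP1 and WDR12 form the PeBoW complex, needed for maturation of the 28S and 5.8S rRNAs. PES1 had a CPM of 66.2 (64.6 to 67.9) in sensitive, 39.5 (38.3 to 40.7) in intermediate and 42.4 (41.2 to 43.7) in fully resistant cells. Both resistant libraries were low, by 1.68-fold (1.61 to 1.74) and 1.56-fold (1.5 to 1.62). WDR12 followed with smaller differences, at 45.2, 34.5 and 40.6. BOP1 was near 0 in every library (0.294, 0.244 and 0.0942), so its level was not readable here, and nothing is drawn from its ratios.

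NIP7, which acts in late pre-rRNA cleavage and 60S assembly, was at 33.5 (32.4 to 34.7), 23.3 (22.3 to 24.2) and 18.7 (17.9 to 19.5). It was 1.79-fold lower (1.70 to 1.90) in fully resistant and 1.44-fold lower (1.37 to 1.52) in intermediate than in sensitive cells. GNL3, or nucleostemin, a nucleolar GTP-binding protein of proliferating and stem cells, was at 145 (143 to 147), 143 (141 to 146) and 87.8 (86.1 to 89.6). Only the fully resistant library was low, by 1.65-fold (1.61 to 1.70) against sensitive and 1.63-fold (1.59 to 1.67) against intermediate cells. NOP16 was at 68.5, 64.1 and 59.7. RRS1, which helps bring the 5S particle into the pre-60S subunit, was at 50.9, 38.0 and 46.4.

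In small subunit assembly the genes split. RRP9, the protein that marks the U3 small nucleolar particle, had the lowest ratio of all 33 among those that passed the minimum, with a CPM of 54.4 (52.9 to 55.9), 42.3 (41.1 to 43.6) and 22.9 (22.0 to 23.9). The fully resistant level was 2.37-fold (2.26 to 2.49) below the sensitive and 1.84-fold (1.75 to 1.94) below the intermediate one. Cells with at least 1 RRP9 UMI made up 41.0%, 32.4% and 19.3% of thinned cells (57.3%, 45.9% and 30.4% unthinned). NOB1, the endonuclease that makes the final cut at the 3' end of 18S rRNA, was at 47.2 (45.8 to 48.6), 37.8 (36.7 to 39.1) and 22.1 (21.2 to 23.0). It was 2.13-fold lower (2.03 to 2.24) in fully resistant than in sensitive cells and 1.71-fold lower (1.62 to 1.80) than in intermediate ones.

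Other small subunit genes did not share this order. LTV1, an export adaptor of the pre-40S particle, was lowest in the intermediate library: 39.6 (38.3 to 40.9), 28.5 (27.5 to 29.5) and 44.9 (43.6 to 46.2). It was 1.39-fold lower (1.32 to 1.46) there than in sensitive cells, and 1.58-fold (1.51 to 1.65) higher in fully than in intermediate resistant cells. That call did not hold under the 3 other scalings, where its log2 ratio was 0.51 to 0.55 in place of 0.66, or in thinned cells at 0.583. UTP20, a large scaffold of the early processome, was at 23.9 (22.9 to 24.9), 23.2 (22.2 to 24.1) and 32.7 (31.6 to 33.8). The fully resistant library stood above both others, by 1.37-fold (1.30 to 1.44) and 1.41-fold (1.34 to 1.49). WDR43 was at 82.6, 62.7 and 83.4 and HEATR1 at 27.8, 23.8 and 27.5, both processome proteins tied to rDNA transcription and both low in the intermediate library. BYSL, needed for 18S maturation, was even at 22.1, 20.9 and 23.5. RRP12, below the minimum, was at 12.5, 9.30 and 12.7.

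Genes of the multifunctional nucleolar proteins differed by less than 1.5-fold between any pair of libraries. NPM1, a histone chaperone and structural protein of the nucleolus, was at 1587 (1579 to 1595), 1623 (1615 to 1631) and 1213 (1207 to 1220). Fully resistant cells were 1.31-fold lower (1.30 to 1.32) than sensitive and 1.34-fold lower (1.33 to 1.35) than intermediate ones. NPM1 has many processed pseudogenes, so reads may have been split or lost in counting. NCL, or nucleolin, was at 582 (577 to 586), 504 (499 to 508) and 541 (536 to 545), highest in sensitive cells and 1.15-fold lower (1.14 to 1.17) in intermediate ones. DDX21, an RNA helicase that couples rDNA transcription to processing, was at 154, 109 and 139, with the intermediate library 1.41-fold lower (1.38 to 1.45) than the sensitive one. NOLC1, a chaperone of small nucleolar particles, went the other way, at 85.5 (83.7 to 87.4), 85.1 (83.3 to 86.9) and 107 (105 to 109), 1.25-fold higher (1.21 to 1.28) in fully resistant than in sensitive cells. MYBBP1A, a nucleolar regulator of rDNA transcription, was at 22.6, 16.3 and 17.2.

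The 5 genes called lower in fully resistant cells were set beside their 20 nearest genes (10 a side) that passed the CPM minimum. For GNL3 and RRP9, both on chromosome 3, the neighbours had median log2 ratios of -0.88 and -0.87, and 0 of 20 were above 0 for either gene. NIP7 and NOB1 lie on chromosome 16, where the neighbours had medians of -0.77 and -0.76, with 1 of 20 above 0 for each. Neighbours of PES1 on chromosome 22 had a median of -0.44. These pairs are not independent, since GNL3 and RRP9 share 10 of their 20 neighbours and NIP7 and NOB1 share 19. For UTP20 on chromosome 12, the gene with the highest ratio, the neighbours had a median of 0.54.

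The same held for the intermediate library. Neighbours of PES1 had a median of -0.57 against sensitive cells, those of NIP7 -0.56 and those of NOB1 -0.59, with 0 of 20 above 0 for each. The 17 neighbours of NOP56 on chromosome 20 had a median of -0.37. On chromosome 3 the order over libraries also matched: neighbours of GNL3 and RRP9 were at -0.12 and -0.16 for intermediate over sensitive cells and at -0.78 and -0.82 for fully over intermediate resistant cells. LTV1 differed from its surroundings, whose median was 0.09 where its own log2 ratio was 0.66.

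When each gene's log2 ratio was taken relative to its neighbours' median, a reading added after these values were seen, 0 genes were 1.5-fold lower and 0 were 1.5-fold higher in any of the 3 comparisons. The median relative ratio was -0.20 for fully resistant over sensitive cells, with 22 of 27 genes below their neighbours, and -0.12 for intermediate over sensitive cells, with 19 of 27. Between the resistant libraries it was -0.05, with 16 of 26. The gene farthest below its neighbours was MYBBP1A in the first (-0.49), DDX21 in the second (-0.45) and NOB1 in the third (-0.54). Whether copy number differed at these places was not tested.

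**Figure D2:**
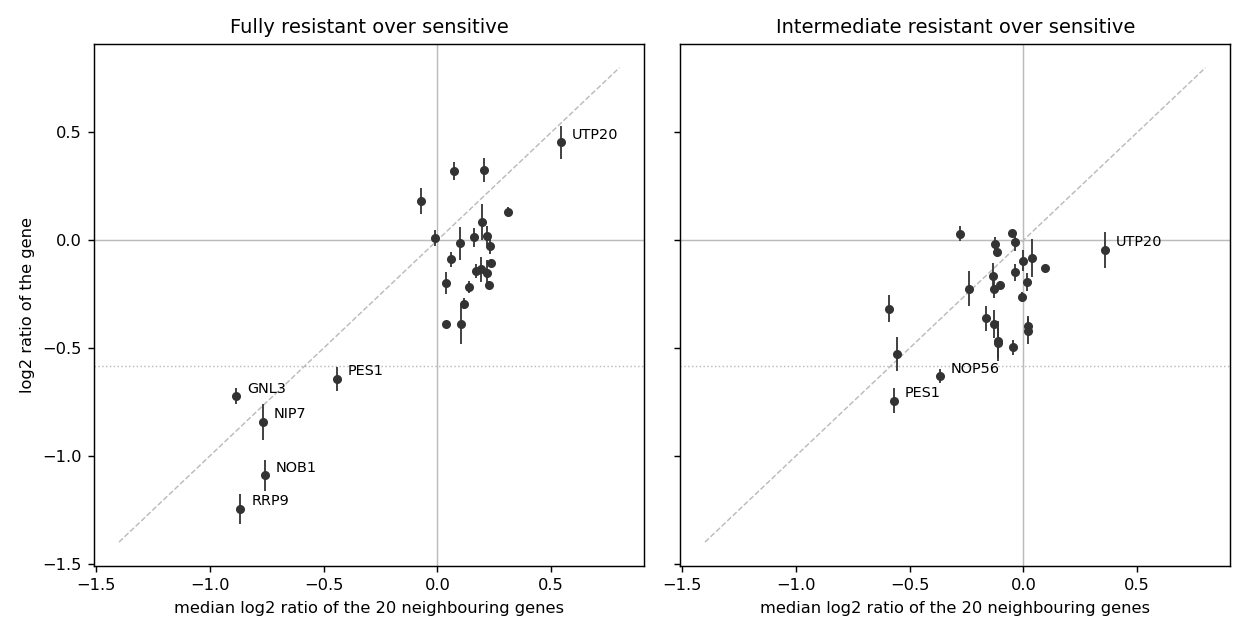
Log2 ratio of each ribosome biogenesis gene that passed the CPM minimum (vertical axis, bars are 95% counting intervals) against the median log2 ratio of its neighbouring genes, usually 20 (horizontal axis), for fully resistant (left) and intermediate resistant (right) over sensitive cells. The dashed line marks equality and the dotted line the 1.5-fold limit. All 5 genes under the limit at left and both at right lie where their neighbours were low too.

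Cells within a library could be read against their own MYCN count. Cells thinned to 9500 UMIs were grouped by MYCN UMIs, and the summed CPM of the 33 genes was read in each group. In the sensitive library it went from 4967 (4799 to 5139) in 70 cells with 0 to 1 MYCN UMIs to 5540 (5498 to 5583) in 1248 cells with 16 or more. In the intermediate library it went from 4473 (4435 to 4511) at 0 to 1 to 5277 (5175 to 5381) at 11 to 15. In the fully resistant library it went from 4341 (4301 to 4381) at 0 to 1 to 4814 (4725 to 4905) at 11 to 15, and was 4724 (4570 to 4881) at 16 or more. The sum was higher in MYCN-rich than in MYCN-poor cells of each library, by less than 1.2-fold throughout. Summed ribosomal protein genes went from 379940 to 356226 in sensitive cells over the same groups. They went from 393062 to 405553 in intermediate cells, and from 343003 to 313826 at 11 to 15 and 316637 at 16 or more in fully resistant ones. Ribosomal protein genes were thus lower in MYCN-rich cells of the sensitive and fully resistant libraries. In the intermediate library they were at 388792, 390132 and 392765 at 2 to 3, 4 to 6 and 7 to 10 MYCN UMIs. Only its 202 cells at 11 to 15 stood above those at 0 to 1.

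At a matched MYCN count the libraries still differed. With 0 to 1 MYCN UMIs the sum was 4967, 4473 and 4341, and with 2 to 3 it was 5040 (4955 to 5125), 4748 (4715 to 4781) and 4527 (4495 to 4559), with no overlap of intervals in either group. With 4 to 6 MYCN UMIs the sum was 5211 (5160 to 5261) in sensitive, 4990 (4956 to 5024) in intermediate and 4648 (4616 to 4680) in fully resistant cells. With 7 to 10 it was 5278 (5237 to 5318), 5256 (5205 to 5306) and 4685 (4637 to 4733). With 11 to 15 it was 5451 (5408 to 5494), 5277 and 4814. Sensitive and intermediate cells thus overlapped at 7 to 10 MYCN UMIs only, and fully resistant cells were below both in each group. Without NPM1 the order of the resistant libraries turned. With 4 to 6 MYCN UMIs the other 32 genes summed to 3559 (3517 to 3601) in sensitive, 3299 (3271 to 3326) in intermediate and 3389 (3362 to 3416) in fully resistant cells, and with 11 to 15 to 3784 (3748 to 3820), 3389 (3307 to 3472) and 3596 (3519 to 3675). The intermediate library was the lowest in all 5 groups, although at 7 to 10 its 3413 (3373 to 3454) overlapped the fully resistant 3446 (3406 to 3488).

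Gene by gene, cells with 7 to 10 MYCN UMIs had the higher level than cells with 2 to 3 for 23 of 27 biogenesis genes in the sensitive, 26 of 28 in the intermediate and 22 of 27 in the fully resistant library. Over all genes the shares were 55.7%, 45.8% and 54.1%. The median log2 ratios were 0.13, 0.17 and 0.07, beside 0.02, -0.01 and 0.01 for all genes. The leading genes differed: RRS1, UTP20 and NIP7 in sensitive, NIP7, NOB1 and RRP9 in intermediate, and NOP16, MYBBP1A and GAR1 in fully resistant cells. Cell cycle calls moved with the MYCN count as well. The share of cells called G2M went from 61.3% at 2 to 3 MYCN UMIs to 57.7% at 7 to 10 in the sensitive library. It went from 47.5% to 29.8% in the intermediate and from 39.4% to 40.3% in the fully resistant one. In the same order of libraries, the share called S went from 25.5% to 30.0%, 33.2% to 42.0% and 37.6% to 38.2%. The share called G1 went from 13.1% to 12.3%, 19.3% to 28.2% and 23.0% to 21.5%. The part of these shifts in the result was not tested. Cells of a library share 1 culture and are not replicates, so these values describe each library only.

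**Figure D3:**
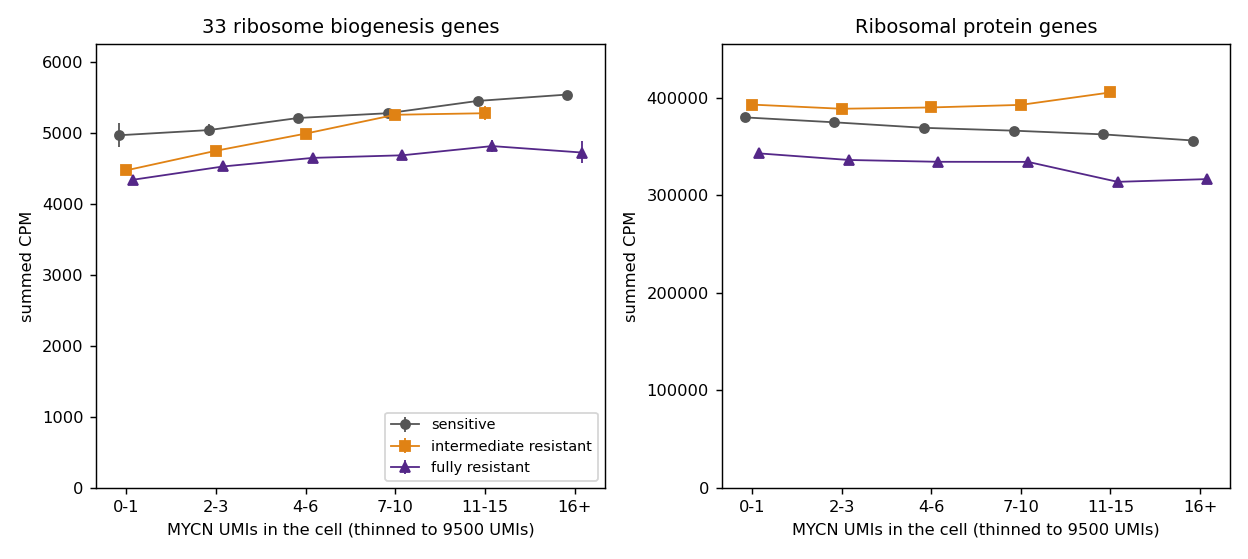
Summed CPM of the 33 ribosome biogenesis genes (left) and of the ribosomal protein genes (right) in cells grouped by MYCN UMIs after thinning to 9500 UMIs, per library. Bars are 95% Poisson intervals and groups under 50 cells are left out. At left the 3 lines go up from 4967, 4473 and 4341 at 0 to 1 MYCN UMIs, and the fully resistant line stays lowest. NPM1 is included, and without it the intermediate library was lowest.

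Cell cycle phase, called per cell from S phase and G2M gene lists that hold none of the 33, also went with their level. Summed CPM in cells called G1, S and G2M was 6153, 5507 and 5065 in the sensitive library and 5589, 5018 and 4339 in the intermediate one, highest in G1 in both. In the fully resistant library it was 4480, 4717 and 4480. NPM1 itself was at 2729, 1639 and 1424 in sensitive, 2813, 1443 and 1248 in intermediate and 1694, 1163 and 1092 in fully resistant cells, highest in G1 in all 3. Without NPM1 the sum was 3424 (3379 to 3469), 3868 (3837 to 3900) and 3641 (3618 to 3665) in sensitive cells called G1, S and G2M. It was 2776 (2747 to 2806), 3576 (3549 to 3602) and 3092 (3069 to 3114) in intermediate and 2786 (2757 to 2816), 3554 (3528 to 3580) and 3388 (3364 to 3413) in fully resistant cells. The sum of the other 32 genes was thus lowest in G1 and highest in S in each library. The high G1 values of the full sum rest on NPM1. Single genes differed. In sensitive, intermediate and fully resistant cells, 7, 5 and 3 of 28 were highest in G1, NPM1 among them, beside 18.9%, 15.7% and 15.7% of all genes. Gene by gene, S phase cells were highest for 16, 21 and 13 of 28 genes in the sensitive, intermediate and fully resistant library. Over all genes the shares were 39.6%, 39.8% and 34.9%. The median log2 ratio of S over G1 cells was 0.20, 0.48 and 0.33 for the 28 genes, beside 0.23, 0.35 and 0.22 for all genes. In sensitive cells it was thus no higher than for all genes. G2M calls made up 54.1%, 42.4% and 40.7% of thinned cells, while the summed CPM of the G2M list was highest in fully resistant cells (6011, 5876 and 6752), so no order of cycling is read from the calls. Between 17.1% and 22.8% of cells lay near a limit between phases.

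Within phases, fully resistant over sensitive cells gave medians of -0.35 in G1, -0.11 in S and -0.03 in G2M, where all genes gave 0.07, 0.10 and 0.15. Called lower were 6 of 27 genes in G1, 5 of 27 in S and 4 of 28 in G2M: NIP7, GNL3, RRP9 and NOB1 in all 3 phases, PES1 in G1 and S, and NPM1 in G1, beside 13.9%, 12.2% and 12.1% of all genes called lower in G1, S and G2M. For intermediate over sensitive cells the medians were -0.31, -0.10 and -0.26, where all genes gave -0.16, -0.05 and -0.02, and 5 of 26, 1 of 28 and 5 of 27 genes were called lower, beside 14.5%, 9.45% and 9.71%. PES1 was among them in each phase, NOP56 in G1 and G2M, RRS1, LTV1 and DDX21 in G1, and NIP7, NOB1 and MYBBP1A in G2M.

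The summed count of the 33 genes per thinned cell had a mean of 50.9, 46.1 and 43.4 UMIs, with SDs over cells of 10.8, 11.5 and 10.2. Its variance was 1.15, 1.08 and 1.30 times the sum of the single genes' variances, with NPM1 included. Without NPM1, the summed count had a variance over mean of 1.77, 2.34 and 2.20. The median over the single genes was 1.07, 1.08 and 1.07. Whether the genes other than NPM1 varied together was not tested. NPM1 had the highest variance over mean of the single genes in each library, at 3.57, 5.26 and 3.23.

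Other genes of ribosome production were read for comparison, as counts of genes called by size. Of 85 further ribosome biogenesis genes, 69 passed the CPM minimum for fully resistant over sensitive cells, of which 11 were called higher and 3 lower, with a median log2 ratio of 0.09, close to the 0.10 of all genes. For intermediate over sensitive cells it was 3 higher and 2 lower of 67 (median -0.10), and between the resistant libraries 6 and 1 of 68 (0.19). In these 3 comparisons, the shares of all genes called higher and lower were 14.7% and 12.2%, 4.72% and 10.2%, and 12.4% and 6.35%. The widest ratios belonged to RRP7A, a small subunit factor, with a CPM of 112, 68.2 and 37.8, CIRH1A (also UTP4), a processome protein, with 45.5, 24.9 and 19.9, RRP8, a nucleolar methyltransferase, with 12.6, 27.0 and 24.0, and DDX27, a helicase of 28S maturation, with 49.2, 52.3 and 104. RRP7A and CIRH1A share chromosomes 22 and 16 with PES1 and with NIP7 and NOB1. The summed CPM of the 85 genes was 4728, 4556 and 4974, highest in fully resistant and lowest in intermediate cells. The 33 genes were lowest in fully resistant cells, and without NPM1 in intermediate ones, as the 85 were. This difference between lists is a description, since both were chosen with results of these data known.

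Among 14 other RNA polymerase I genes, 12 passed the minimum, and 1 was called higher (POLR2L, a subunit shared by the nuclear RNA polymerases, at 165, 294 and 283) and 1 lower (POLR1E, 24.0, 24.0 and 10.6) in fully resistant than in sensitive cells. CD3EAP, the partner of POLR1E in the enzyme, was at 87.4, 52.8 and 60.9, so that in intermediate cells it was the gene called lower, 1.65-fold (1.60 to 1.71). Of the 14 RNA exosome genes, which trim rRNA ends, 0 were called higher and 3 lower in fully resistant cells: MPHOSPH6 (44.7, 20.1 and 21.0), EXOSC6 (22.0, 11.5 and 13.0) and EXOSC7 (39.8, 36.2 and 22.2). The first pair lies on chromosome 16 and EXOSC7 on chromosome 3. Over all genes, 14.7% were called higher and 12.2% lower in fully resistant than in sensitive cells, and 4.72% and 10.2% in intermediate ones.

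MYC targets outside the ribosome gave 3 genes called higher and 1 lower of 26 in fully resistant over sensitive cells (median -0.03), and 0 and 2 in intermediate over sensitive cells (median -0.21, next to -0.22 for the biogenesis genes). IMPDH2, of guanine nucleotide synthesis, was the lower one at 116, 104 and 49.2, and it lies on chromosome 3. ODC1, the first enzyme of polyamine synthesis and a textbook MYCN target, was at 792, 481 and 582. SHMT2, of folate metabolism, and CDK4, the G1 kinase, were higher at 31.4, 41.2 and 54.9 and at 260, 344 and 413. Ribosomal protein genes had a median of -0.08 with 5 higher and 8 lower of 81 in fully resistant over sensitive cells. It was 0.13 with 4 and 3 in intermediate over sensitive cells, where the biogenesis genes were lower. The shares of all genes called higher and lower were 14.7% and 12.2% in the first comparison and 4.72% and 10.2% in the other.

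Of a list of genes for p53 and the surveillance of ribosome assembly, 3 are given. CDKN1A, the p21 inhibitor of the cell cycle, was at 14.1, 0.469 and 36.5. CDKN2A, which encodes the inhibitor p16 and the MDM2 antagonist ARF, was at 7.88, 31.3 and 0.0471. MDM2, a ubiquitin ligase that free ribosomal proteins bind, was at 27.3, 28.1 and 38.2.

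**Figure D4:**
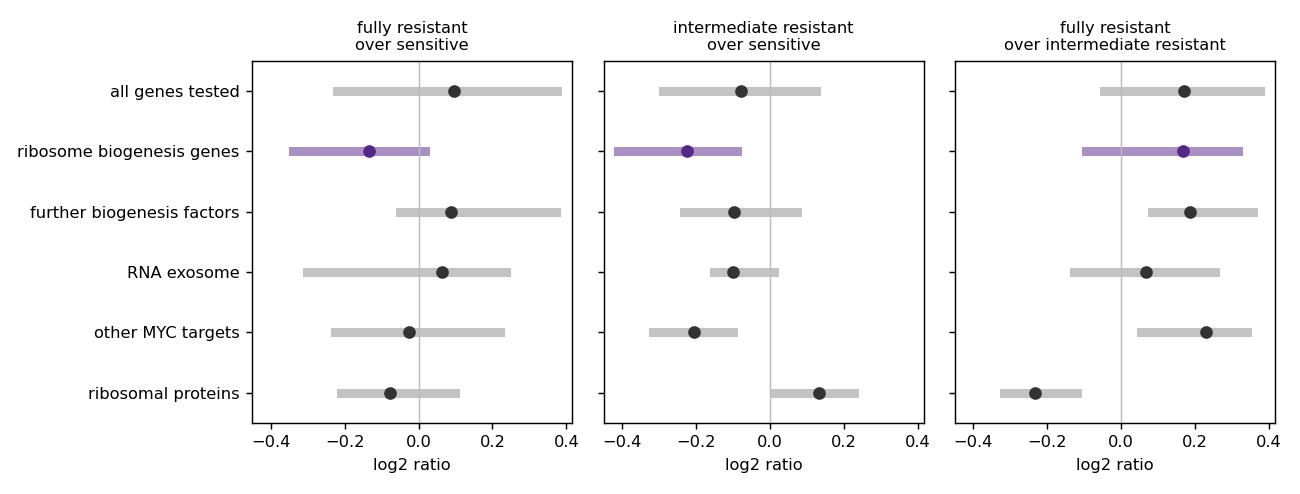
Median log2 ratio (points) and interquartile range over genes (bars) for all genes tested and for 5 gene lists, in the 3 comparisons. The ribosome biogenesis genes lie to the left of all genes in the comparisons with sensitive cells (-0.13 against 0.10, and -0.22 against -0.08) and level with them between the resistant libraries (0.17 and 0.17).

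Genes with CACGTG in their window were set beside genes with a window but without it, and neither set was the lower one throughout. For fully resistant over sensitive cells the 12 tested genes with it had a median log2 ratio of -0.07 and the 12 without it -0.18, and for intermediate over sensitive cells -0.31 and -0.20. Between the resistant libraries 11 genes with it had a median of 0.19 and 12 without it 0.01. Of the windows printed above, those of RRP9, GNL3 and PES1 belong to genes called lower in the fully resistant library and that of LTV1 to the gene called higher there than in the intermediate one.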

How the data were processed

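Single-cell 3' RNA was measured in 3 Kelly cultures with 10x Genomics version 2 reagents, per the labels' protocols. The deposited values are raw UMI counts per gene and barcode, with empty barcodes left in. Per the submitters' processing notes, bcl2fastq and Cell Ranger were used with hg19; versions and the annotation are not given in the sources used here. All deposited per-sample columns were used (0 left out).

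Called cells (limits in the report) were summed per library and scaled to CPM. Doublets were kept, with no caller run. As an upper estimate of free RNA, barcodes with at most 100 UMIs served as its profile. Apart from BOP1, it could carry at most 1.15% of the level of any of the 33 genes (NOP58). BOP1, near 0 in every library, was left out of this maximum, and its share was higher. Ratios have exact conditional Poisson 95% intervals; with 1 library per group there is no test. Cells were thinned to 9500 UMIs for shares, phases and MYCN groups, leaving out 508, 452 and 488 shallower cells. Phases came from scanpy 1.11.5 (score_genes_cell_cycle), TMM factors from edgeR 4.0.16 in R 4.3.3 and the rest from Python 3.11.15 with numpy 2.4.6, scipy 1.17.1 and pandas 2.3.3. Gene order came from a GRCh38 annotation matched by gene ID, which held 32 of the 33; no coordinates were carried between builds. The calls were tested on simulated data.

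The 33 genes and the lists were chosen with earlier results of these data known. Given in full were genes called at 1.5-fold, the 3 highest and 3 lowest ratios of each comparison, NCL, NPM1, FBL, DKC1, POLR1A and UBTF; from other lists, up to 4 genes with the widest ratios at a CPM of at least 20. Alternatives covered scaling, cell limits, cells over 40000 UMIs, thinning, phase weighting, free RNA, cell weighting and the CPM minimum. Some marker and stress response genes, and the Schwann cell marker list, are not reported here.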

Additional observations from a re-analysis of the deposited data

How the results depend on the processing

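Each state had 1 library, so leaving out libraries in turn was not possible. No paired analysis was possible because each group had 1 library. BOP1 had too few UMIs to read, and counting error says nothing of the spread between cultures. For the 33 genes, 89 of 111 recomputed medians and counts stayed the same, 21 moved and 1 reversed, and the causes were not tested. A median stayed the same if it lay between the medians of the single genes' lower and upper interval limits. A count did so if it was equal to the reported count or within 1.5 times of it. Counts of 0 that stayed at 0 are among the 89.

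Taking ribosomal protein and mitochondrially encoded genes out of the total gave medians of -0.15 for intermediate over sensitive and 0.053 for fully over intermediate resistant cells, with 1 gene lower in the first and 0 higher in the second. TMM scaling gave medians of -0.23, -0.18 and 0.024 for fully over sensitive, intermediate over sensitive and fully over intermediate cells, with 1 gene lower in the second (PES1, without NOP56) and 0 higher in the third. Median-of-ratios scaling gave -0.20 for fully over sensitive and 0.055 for fully over intermediate cells, with 0 higher in the latter. Thinning to 9500 UMIs, which also leaves out shallower cells, left 0 genes higher there, with LTV1 just under 1.5-fold at 0.583. The call of LTV1 thus depends on the scaling. Equal weights for G1, S and G2M cells gave -0.20 for fully over sensitive and -0.17 for intermediate over sensitive cells.

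Relative to neighbours, an alternative chosen after seeing the data, medians were -0.20, -0.12 and -0.049 in the same 3 comparisons, the last reversed from 0.17. It left 0 genes lower in each of the 3 and 0 higher in the last, by construction where neighbours moved alike. The calls of RRP9, NOB1, NIP7, GNL3 and PES1 in fully resistant over sensitive cells were kept under every other alternative, and without a CPM minimum BOP1 joined them.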
